A study of Homo sapiens with 6 samples.

Results

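The HOX, PBX and MEIS homeobox genes were described in SH-SY5Y cells, a human neuroblastoma line of sympathetic neuronal type, in libraries labelled as CDKN2B-AS1 overexpression and as control vector infection. Members were all protein-coding rows of the deposited table named as a HOX gene of cluster A, B, C or D, as a PBX gene or as a MEIS gene, which gave 46 of 60612 genes. They were 11 HOXA, 10 HOXB, 9 HOXC and 9 HOXD genes, 4 PBX genes and 3 MEIS genes. Total RNA of 6 samples was converted to libraries by a SMART-seq protocol and read as paired ends. The 3 libraries labelled overexpression came from cells infected to overexpress CDKN2B-AS1, and the 3 control vector libraries came from cells infected with a vector labelled stuffer. Both groups are the same cell line, and both were infected. Column headers tag every overexpression library LVx2 and every control vector library LVx1. No label says what these tags mean, so whatever handling they mark and the vector itself cannot be told apart. Whether replicates were grown as separate cultures is not labelled either, and p-values reflect only the spread among these libraries, which may be technical.

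HOX genes encode homeodomain transcription factors that give cells their position along the body axis. They lie in order in each cluster, and genes of the same number in different clusters, called a paralog group, are related copies: low numbers act towards the head and high numbers towards the tail and the limb tips. PBX and MEIS proteins belong to the TALE class of homeodomain proteins and bind DNA together with HOX proteins as cofactors. HOX clusters are textbook targets of Polycomb repression, and CDKN2B-AS1, a long noncoding RNA antisense to the cell cycle inhibitor gene CDKN2B, is known for binding Polycomb proteins in other human cells.

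The deposited values are FPKM, fragments scaled to the length of the gene and to the depth of the library. The depth recovered from them ran from 20466583 to 48996425 fragments in the overexpression libraries and from 29048596 to 45102020 in the control vector libraries. Pearson correlations over the 13984 tested genes, which are not independent replicates, were 0.975 to 0.983 among overexpression libraries, 0.959 to 0.968 among control vector libraries and 0.959 to 0.969 between the groups. The control vector libraries thus resembled overexpression libraries about as much as each other. Of 10 adrenergic neuroblastoma markers 9 reached 1 FPKM in every library, among them DBH and GATA3, while TH, the first enzyme of catecholamine synthesis, stayed at up to 0.30 FPKM. All 4 immune and all 4 epithelial markers stayed below 1 FPKM. Of the immune markers 3 were listed at 0 in every library, PTPRC and CD3E among them, and CD14 reached 0.738 FPKM. Of the epithelial markers KRT5 was at 0 and EPCAM reached 0.439 FPKM. Of 5 Schwann and glial markers S100B stood at 2.84 to 6.81 FPKM and the others at up to 0.181 FPKM. The summed level of 7 mesenchymal markers was 81.9 to 86.2 FPKM in overexpression and 49.5 to 56.7 FPKM in control vector libraries, with PRRX1 listed at 0. Most of that difference was VIM, at 69.7 to 73.3 FPKM in overexpression and 42.1 to 50.4 FPKM in control vector libraries, and the other 6 summed to 9.71 to 12.8 and 6.23 to 10.3 FPKM, which overlap. The summed level of 7 fibroblast markers, none of them listed at 0 throughout, was 45.3 to 51.2 FPKM in overexpression and 41.3 to 53.9 FPKM in control vector libraries. The part of any of these markers in the results below was not tested.

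CDKN2B-AS1 itself (ENSG00000240498) stood at 0.338, 0.304 and 0.353 FPKM in overexpression replicates 1, 2 and 3 and at 0.272, 0.288 and 0.191 FPKM in control vector replicates 1, 2 and 3. The groups did not overlap, and their means were 0.332 ± 0.0252 and 0.250 ± 0.0522 FPKM (SD, n = 3 each; exact two-sided permutation p = 0.1, the smallest that 3 libraries against 3 allow). The labels come from sample titles and column headers, and the gene they name differed little between the groups. Its FPKM is scaled to a length of 20420 bases. Every direction below is that of the libraries so labelled.

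HOXA and HOXB transcripts were not detectable at this depth, apart from 1.5 fragments. Of their 21 genes 19 were listed at 0 in all 6 libraries, all 10 of HOXB among them, whereas 18.6% of the 19942 protein-coding genes of the table were. The exceptions were HOXA3, with 0.5 fragments, and HOXA6, with 1 fragment, both in control vector replicate 3. Over the 214552533 fragments of all libraries, a count of 0 allows up to 3 fragments, which sets upper limits of 0.00188 to 0.00920 FPKM for the 19 genes at 0. These limits cover counting error only.

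The other transcripts of both clusters were also nearly all at 0. The HOXA span (GRCh38 chromosome 7, 27092993 to 27200091) holds 23 further rows, of which 21 were at 0 throughout, including the long noncoding RNAs HOTAIRM1 and HOTTIP. The HOXB span (chromosome 17, 48528526 to 48728750) holds 17, of which 16 were at 0, the exception being the ribosomal protein pseudogene RPL9P28. The nearest protein-coding gene outside each cluster, the homeobox gene EVX1 for HOXA and TTLL6 for HOXB, was also listed at 0 in every library. On the other side SKAP2, beyond HOXA, stood at 0.291 to 0.547 FPKM in overexpression and 0.236 to 0.591 FPKM in control vector libraries, and SKAP1, beyond HOXB, was at 0 in 5 of 6 libraries. Signal was higher farther out. HIBADH, 325 kb from HOXA, stood at 18.0 to 25.4 FPKM in overexpression and 24.2 to 31.2 FPKM in control vector libraries, and CALCOCO2, 102 kb from HOXB, at 5.99 to 7.77 FPKM in overexpression and 4.42 to 5.89 FPKM in control vector libraries.

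**Figure D1:**
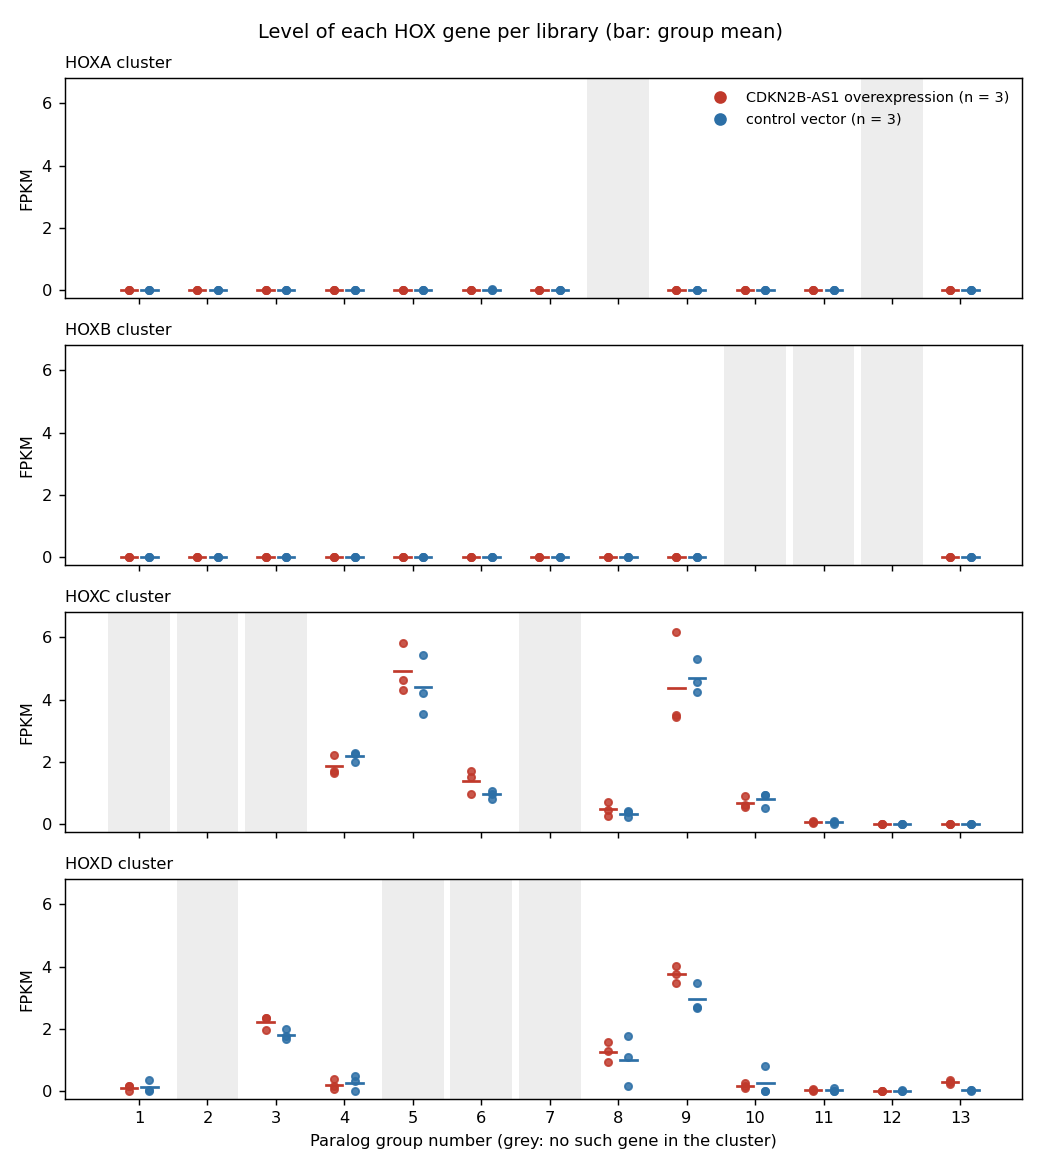
FPKM of the 39 HOX genes by cluster and paralog group, 1 point per library and a bar at each group mean, with overexpression left of control vector and grey where a cluster has no gene of that number. All HOXA and HOXB points lie at or near 0. HOXC shows signal from HOXC4 to HOXC10, and HOXD mainly at HOXD3, HOXD8 and HOXD9. The highest means are those of HOXC5, HOXC9 and HOXD9.

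The HOXC cluster was active from HOXC4 to HOXC10, with levels that peaked at groups 5 and 9. HOXC9, which sets thoracic identity in spinal motor neurons and promotes differentiation of neuroblastoma cells, stood at 3.51, 6.16 and 3.43 FPKM in overexpression replicates 1, 2 and 3 and at 5.32, 4.57 and 4.23 FPKM in control vector replicates 1, 2 and 3. Overexpression replicate 2 was the highest of all, and its 2 fellow replicates the lowest, so the groups overlapped. HOXC5, a gene of the neck and upper trunk, stood at 4.32, 4.62 and 5.83 FPKM in overexpression and 5.45, 4.22 and 3.54 FPKM in control vector libraries. HOXC5 and HOXC9 could not be ranked against each other, since HOXC5 was higher in 3 of 6 libraries.

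HOXC5 is the least separable of the tested members. Of its 1611 exonic bases 67.3% also lie in exons of RP11-834C11.12 or RP11-834C11.14, which overlap it on the same strand, and the deposited values contain fractions of a fragment. RP11-834C11.12, annotated as protein-coding and running from HOXC10 to HOXC5, had 5.44, 4.20 and 7.05 FPKM in overexpression and 5.16, 4.47 and 4.07 FPKM in control vector libraries. HOXC4 and HOXC6, both genes of the neck and forelimb level, share 484 exonic bases with each other. HOXC9 is more distinct, with 9.78% of its bases in another gene's exons.

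The other HOXC genes were lower. HOXC4 stood at 1.64, 2.22 and 1.72 FPKM in overexpression and 2.28, 2.25 and 1.99 FPKM in control vector libraries, and HOXC6 at 1.69, 1.5 and 0.960 FPKM in overexpression and 1.07, 0.979 and 0.805 FPKM in control vector libraries. HOXC10, a lumbar motor neuron gene, ran from 0.536 to 0.887 FPKM in overexpression and from 0.505 to 0.948 FPKM in control vector libraries. HOXC8, which lies between HOXC6 and HOXC9, ran from 0.253 to 0.708 FPKM in overexpression and from 0.214 to 0.410 FPKM in control vector libraries. HOXC10 was above HOXC8 in 5 of 6 libraries, so their order was not settled. HOXC9 thus exceeded HOXC8 by 7.53 to 21.4 times and HOXC10 by 3.87 to 11.5 times within single libraries, in 6 of 6 libraries. HOXC11 reached 0.0949 FPKM at most, and HOXC12 and HOXC13 were listed at 0 in all libraries.

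In the HOXD cluster, group 9 had the highest level in FPKM. HOXD9, a gene of the lower trunk and limb with no exonic base shared with another gene, stood at 4.03, 3.76 and 3.49 FPKM in overexpression replicates 1, 2 and 3 and at 2.67, 2.7 and 3.47 FPKM in control vector replicates 1, 2 and 3. The 3 overexpression libraries lay above the 3 control vector libraries, by a margin of 3.49 over 3.47 FPKM at the closest. HOXD3, which acts in the upper neck and is known for control of integrin genes, followed at 2.34, 2.35 and 1.95 FPKM in overexpression and 1.76, 1.67 and 1.99 FPKM in control vector libraries. HOXD9 exceeded HOXD3 in FPKM in 6 of 6 libraries, by 1.51 to 1.79 times. That order rests on the deposited lengths, 1871 bases for HOXD9 and 3698 for HOXD3. In fragments HOXD3 was the higher in every library, with 1562.94 against 1324.5 over all libraries. HOXC9 exceeded its paralog HOXD9 in 4 of 6, so their order was not settled.

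HOXD8, next to HOXD9, was the least even of the HOXD genes tested. It stood at 0.942, 1.28 and 1.58 FPKM in overexpression replicates 1, 2 and 3 and at 1.1, 0.166 and 1.76 FPKM in control vector replicates 1, 2 and 3. Control vector replicate 2 was far below the rest, with 12.67 fragments against 68.17 to 203.17 in the other libraries. HOXD10, a lumbar gene on the other side of HOXD9, did the reverse in that library: it held 17, 8 and 10 fragments in overexpression replicates 1, 2 and 3 and 0, 58 and 0 in control vector replicates 1, 2 and 3. The remaining HOXD genes were low in every library, with HOXD4 at up to 0.468 FPKM, HOXD1 at up to 0.339 FPKM, HOXD11 at up to 0.0813 FPKM and HOXD12 at up to 0.0179 FPKM.

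**Figure D2:**
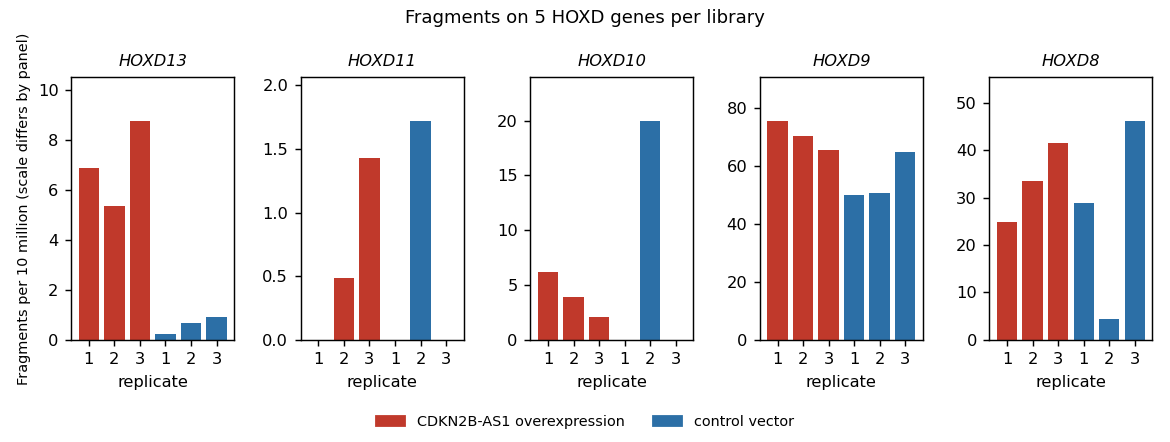
Fragments scaled to library depth on HOXD13, HOXD11, HOXD10, HOXD9 and HOXD8, 1 bar per library, with a scale of its own in each panel. HOXD13 is higher in the 3 overexpression libraries, whose 11 to 43 fragments compare with 1 to 4 in control vector libraries, while HOXD10 is highest and HOXD8 lowest in control vector replicate 2.

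HOXD13, the last gene of the cluster, which patterns digits and the genital tract, showed the widest separation of groups among the members and was singled out after its values were seen. It stood at 0.286, 0.222 and 0.363 FPKM in overexpression replicates 1, 2 and 3 and at 0.00918, 0.0285 and 0.0381 FPKM in control vector replicates 1, 2 and 3. These levels rest on 19, 11 and 43 fragments in overexpression and 1, 2 and 4 fragments in control vector libraries. The lowest overexpression library was well above the highest control vector library, although all 6 were below the 1 FPKM that the test required.

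The means were 0.290 ± 0.0705 FPKM in overexpression and 0.0253 ± 0.0147 FPKM in control vector libraries (SD, n = 3 each), and the exact two-sided permutation p was 0.1, the smallest possible here. Fragments summed to 73 in overexpression and 7 in control vector libraries. Scaled to depth, that is a ratio of 12.6 (exact Clopper-Pearson 95% interval 5.84 to 32.6, for counting error alone). HOXD13 missed the threshold in limma-trend over all 33905 genes above 0 (log2 fold change 0.59 on the log2(FPKM + 0.5) scale, Benjamini-Hochberg adjusted p = 0.15). In that fit 0 genes passed, with a smallest adjusted p of 0.117, so missing it does not set HOXD13 apart. A limma-voom fit on genes with at least 10 fragments in at least 3 libraries was added once the data had been seen. HOXD13 did not pass there (log2 fold change 3.53, SE 0.95, Benjamini-Hochberg adjusted p = 0.158), where 15 of 19417 genes were higher and 6 lower. Groups did not overlap upward in 9.78% of the genes above 0 in any library, and in 3 of the 25 such members, HOXD13, HOXD9 and MEIS2. No member's groups separated downward, which 5.63% of those genes did. EVX2, the next homeobox gene beyond HOXD13, had 0, 0.0465 and 0.00971 FPKM in overexpression libraries and was listed at 0 in the 3 control vector libraries. Its groups thus did not separate, and its values lie near the floor.

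The 250 bases before the start of HOXD13 are shown beside those of HOXD12, its neighbour, and of HOXA13, its paralog, neither of which was above 0.0179 FPKM in any library. Sequences are RefSeq's on GRCh38.p14, at chr2:176092471-176092720 (plus strand), chr2:176099545-176099794 (plus strand) and chr7:27200092-27200341 (minus strand), with matches to a searched motif in capitals.
HOXD13: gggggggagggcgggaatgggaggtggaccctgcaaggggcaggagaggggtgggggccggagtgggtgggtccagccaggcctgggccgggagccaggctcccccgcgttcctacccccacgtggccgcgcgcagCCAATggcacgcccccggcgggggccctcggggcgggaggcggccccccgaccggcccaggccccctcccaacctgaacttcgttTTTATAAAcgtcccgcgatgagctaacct
HOXD12: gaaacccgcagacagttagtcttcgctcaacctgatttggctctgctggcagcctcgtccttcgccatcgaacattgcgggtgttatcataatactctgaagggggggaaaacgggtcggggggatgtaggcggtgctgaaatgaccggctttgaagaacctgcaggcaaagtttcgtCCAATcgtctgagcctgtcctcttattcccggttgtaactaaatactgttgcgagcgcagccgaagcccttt
HOXA13: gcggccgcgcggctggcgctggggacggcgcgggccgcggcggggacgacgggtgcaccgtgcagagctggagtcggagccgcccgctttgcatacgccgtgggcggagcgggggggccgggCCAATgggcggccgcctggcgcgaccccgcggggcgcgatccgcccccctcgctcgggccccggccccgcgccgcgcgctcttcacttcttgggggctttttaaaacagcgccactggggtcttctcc
Searched on both strands were the CCAAT box (letters CCAAT, in 32.0% of all 35116 such windows), the TATA box (TATAAA, 10.7%), a MEIS motif (TGACAG, 13%) and a joint PBX-HOX motif (TGATNNAT, 6.47%). Each of the 3 windows holds CCAAT on the strand of its gene. The HOXD13 window alone of the 3 holds TATAAA, on both strands in overlapping matches, with the one on the gene's strand beginning 27 bases before the start. TATAAA is not particular to HOXD13 among the members. It also lies in windows of HOXA3, HOXA9 and HOXA10, and the last 2 genes were listed at 0 in every library. None of the 3 holds the MEIS or the PBX-HOX letters. G and C made up 74.0%, 53.2% and 78.0% of the HOXD13, HOXD12 and HOXA13 windows, against a median of 58.0% over all windows.

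The 3 MEIS genes were detected in every library. MEIS2, which neuroblastoma cells are known to need for growth, was the highest of them, at 4.95, 6.09 and 5.68 FPKM in overexpression replicates 1, 2 and 3 and 4.6, 3.95 and 4.43 FPKM in control vector replicates 1, 2 and 3. All 3 overexpression libraries lay above all 3 control vector libraries. MEIS1, a HOX cofactor best known from leukaemia, stood at 3.31, 3.15 and 3.28 FPKM in overexpression and 3.62, 2.38 and 3.43 FPKM in control vector libraries. MEIS3, the third family member, stood at 2.17, 2.65 and 2.05 FPKM in overexpression and 1.95, 1.57 and 2.80 FPKM in control vector libraries. MEIS2 exceeded MEIS1, and MEIS1 exceeded MEIS3, in 6 of 6 libraries. Of the bases of MEIS1, 13.1% also lie in exons of the antisense MEIS1-AS2, whose own level was 1.75, 1.46 and 1.72 FPKM in overexpression and 1.43, 0.919 and 1.27 FPKM in control vector libraries.

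PBX genes encode the cofactors that contact HOX proteins directly, and PBX3 was above PBX4 in 6 of 6 libraries. PBX3 stood at 3.57, 3.35 and 3.55 FPKM in overexpression and at 2.71, 2.08 and 3.49 FPKM in control vector libraries, and control vector replicate 3 lay within the overexpression range. PBX4 was less even, at 2.49, 1.11 and 1.17 FPKM in overexpression and 1.79, 0.517 and 1.42 FPKM in control vector libraries. PBX2, usually a widely expressed member, was below the filter, at 0.230 to 0.548 FPKM in overexpression and 0.303 to 0.369 FPKM in control vector libraries. RNF5, which lies near PBX2 on chromosome 6, stood at 105 to 123 FPKM in overexpression and 142 to 147 FPKM in control vector libraries. Its exact two-sided permutation p was 0.1, the smallest possible, and 9.9% of all tested genes separated downward. AGPAT1 and GPSM3, also near PBX2, overlapped between the groups.

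**Figure D3:**
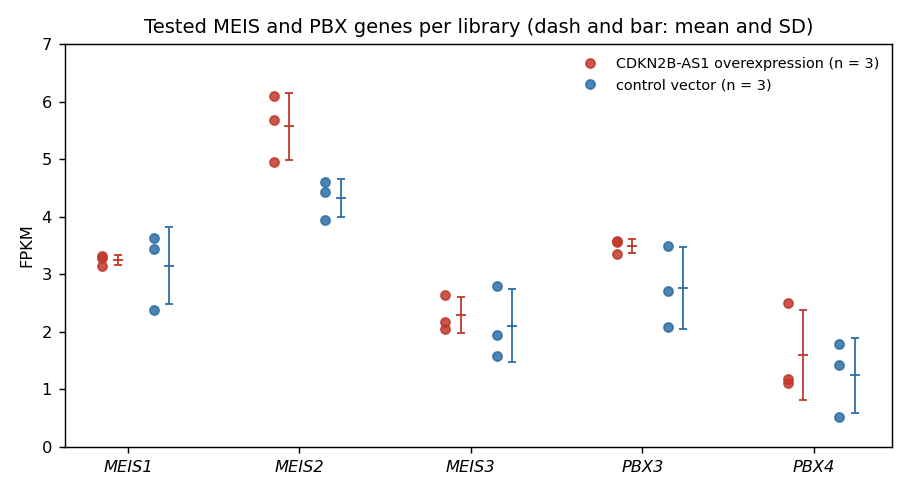
FPKM of the tested MEIS and PBX genes, 1 point per library with the group mean and SD beside the points, overexpression left of control vector. MEIS2 is the only gene here whose groups do not overlap, with 4.95 to 6.09 FPKM in overexpression and 3.95 to 4.6 FPKM in control vector libraries.

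The comparison asked whether these genes differ between the libraries labelled overexpression and control vector. CDKN2B-AS1 itself differed little between them, with means of 0.332 and 0.250 FPKM. The result below therefore holds for the labelled libraries and does not answer what strong overexpression would do. No member passed. In bulk RNA, fewer cells that express a gene and less of its RNA per cell cannot be told apart. Of the 46 members 12 were high enough to test, with at least 1 FPKM in at least 3 of 6 libraries: HOXC4, HOXC5, HOXC6, HOXC9, HOXD3, HOXD8, HOXD9, MEIS1, MEIS2, MEIS3, PBX3 and PBX4. In limma-trend, 0 were higher and 0 lower at a Benjamini-Hochberg adjusted p under 0.05, where 1.14% of all 13984 tested genes passed, 0.529% higher and 0.608% lower (74 and 85 genes). That split depends on scaling: 167 genes were higher and 51 lower with FPKM rescaled to a common total, and 55 and 132 with median-of-ratios factors. The 12 adjusted p-values ran from 0.343 to 0.913, and 0 members had an unadjusted p under 0.05. In limma-voom on recovered fragments 0 of the 12 passed as well, with 1 unadjusted p under 0.05, that of MEIS2.

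MEIS2 had the smallest p, with 5.57 ± 0.581 FPKM in overexpression and 4.32 ± 0.337 FPKM in control vector libraries (SD, n = 3 each). Its log2 fold change was 0.33, with a 95% interval of -0.05 to 0.71 (limma-trend, Benjamini-Hochberg adjusted p = 0.343). For HOXD9 it was 0.31, with an interval of -0.11 to 0.74 (adjusted p = 0.427), with 3.76 ± 0.272 FPKM in overexpression and 2.95 ± 0.451 FPKM in control vector libraries (SD, n = 3 each). MEIS2 and HOXD9 were the 2 of 12 tested members whose groups did not overlap, both upward. Of all tested genes 24.1% separated, 14.2% upward and 9.9% downward, so 2 of 12 is no more than the background. With the trend on gene length removed, the log2 fold change of MEIS2 was 0.16. For PBX3 the log2 fold change was 0.31 (interval -0.16 to 0.79), for HOXC6 0.36 (-0.22 to 0.94) and for HOXD8 0.38 (-0.56 to 1.32).

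The tested members with a log2 fold change below 0 were in HOXC. HOXC4 had a log2 fold change of -0.18 (interval -0.66 to 0.29) and HOXC9 of -0.14 (-0.66 to 0.38). HOXC5 was at 0.15, HOXD3 at 0.23, MEIS1 at 0.06, MEIS3 at 0.12 and PBX4 at 0.28, each with an interval that spans 0. Without control vector replicate 2 the values of HOXD8, MEIS1, MEIS3 and PBX4 were -0.12, -0.10, -0.033 and -0.065, without overexpression replicate 1 that of PBX4 was -0.01, and with the length trend removed that of MEIS1 was -0.12. On the log2(FPKM + 0.5) scale the intervals exclude a change of 1 in either direction for 10 of the 12, and for HOXD8 and PBX4, the 2 least even, they do not.

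**Figure D4:**
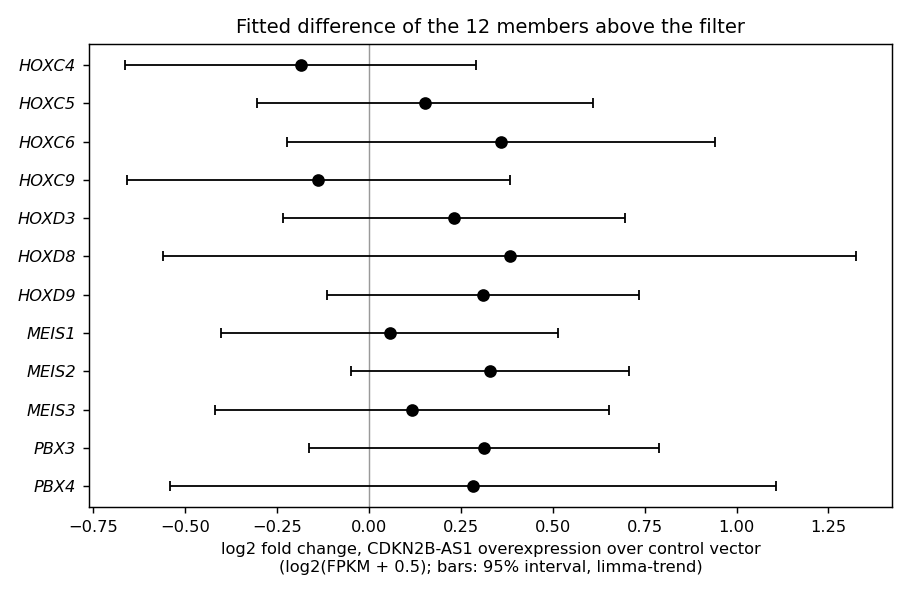
Log2 fold change of overexpression over control vector for the 12 tested members, with 95% intervals from limma-trend on log2(FPKM + 0.5). Every interval spans 0, and the points run from -0.18 for HOXC4 to 0.38 for HOXD8.

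As a group, 10 of 12 tested members had log2 fold changes above 0, or 83.3%, against 56.8% of all tested genes, and their median was 0.26, against 0.05 over all tested genes. That median rested on control vector replicate 2, and without it the members' median was 0.051 and that of all tested genes 0.05. The count depended on the same library: without it 6 of 12 members were above 0. Control vector replicate 2 held the lowest of the 6 values for 7 of 12 members, or 58.3%, and for 21.1% of all tested genes. By cluster, summed levels for HOXC were 12.3 to 15.8 FPKM in overexpression and 11.5 to 15.5 FPKM in control vector libraries, which overlap. For HOXD they were 7.75 to 8.25 and 5.78 to 7.31 FPKM, which do not. Single tested genes separated upward in 14.2% of cases, and no such share was computed for sums. HOXD9 alone made up 46.2% of the HOXD sum of mean levels, and 0 of the 3 tested HOXD genes passed.

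Transcripts antisense to HOXD genes were detected and did not pass. HOXD-AS2, antisense to HOXD3 and HOXD8, stood at 5.27, 4.25 and 4.27 FPKM in overexpression and 3.96, 4.89 and 5.21 FPKM in control vector libraries, a log2 fold change of -0.02 (limma-trend, Benjamini-Hochberg adjusted p = 0.964). HAGLR, antisense to HOXD1 and HOXD3, was at -0.15 (adjusted p = 0.814). Since the sources used here do not state whether counting used strand, fragments in the 642 bases that HOXD8 shares with HOXD-AS2 cannot be told apart. HOTAIR, the HOXC transcript known for guiding Polycomb, was below the filter. It stood at 0.433, 0.357 and 0.741 FPKM in overexpression replicates 1, 2 and 3 and 0.452 FPKM in control vector replicate 1, and was listed at 0 in control vector replicates 2 and 3.

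In gene lists for factors that act with or on HOX genes, 0 genes passed either. Over all 13984 tested genes 1.14% passed and the median log2 fold change was 0.05, the references for every list below. At that share, a count of 0 in lists this short says little about the lists. Among 11 other TALE homeobox genes 3 were tested, 0 passed and the median log2 fold change was 0.02. Of the 13 ParaHox and HOX-flanking homeobox genes, 10 were listed at 0 in every library and 0 reached the filter. In the trithorax and MLL list, which opposes Polycomb at HOX genes, 0 of 12 tested passed and the median was 0.37, with AFF4, an elongation factor, at 0.72 (limma-trend, Benjamini-Hochberg adjusted p = 0.145). In the Polycomb list 0 of 20 passed and the median was 0.10. EZH1, a histone methyltransferase of that list, had 1.15, 2.75 and 1.59 FPKM in overexpression and 0.736, 0.182 and 0.574 FPKM in control vector libraries without passing (adjusted p = 0.125).

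The retinoic acid pathway, which switches HOX genes on in order during development, had 0 of 9 past the threshold and a median of 0.01. RXRB, a nuclear receptor of the pathway, had a log2 fold change of -0.61 without passing (limma-trend, Benjamini-Hochberg adjusted p = 0.175). STRA6, a receptor for retinol uptake, stood at 54.5 to 57.5 FPKM in overexpression and 44.6 to 53.0 FPKM in control vector libraries. Of the HOX and TALE cofactors 0 of 11 passed, with a median of 0.33. TLE1, a corepressor, had 9.61, 12.4 and 9.74 FPKM in overexpression and 6.10, 6.42 and 6.27 FPKM in control vector libraries (log2 fold change 0.70, limma-trend, Benjamini-Hochberg adjusted p = 0.0646). In the cohesin and boundary list, whose proteins divide HOX clusters into domains, 0 of 8 passed and the median was 0.23, with the cohesin subunit SMC1A at 0.73 (adjusted p = 0.0813).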

How the data were processed

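RNA-seq was measured in 6 SH-SY5Y libraries, 3 labelled CDKN2B-AS1 overexpression and 3 control vector. Per the submitters' processing notes, the aligner STAR 2.7.9 and the counter featureCounts 2.0.1 were used with builds named GRCh38.p13 and hg38; options and strand setting are not given in the sources used here. The authors deposited FPKM per gene and library with gene length and exon positions, per the file headers. Values were multiples of 0.01 fragments within a tolerance of 0.001, which gave each library's depth, and 44.2% to 49.0% of values up to 1000 fragments were whole, so fragments are fractional and no count model was the main test.

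Genes with at least 1 FPKM in at least 3 libraries were tested on the whole table with limma 3.58.1 in R 4.3.3 (limma-trend) on log2(FPKM + 0.5), which understates changes of low genes, with Benjamini-Hochberg adjustment over 13984 genes at 0.05. The script was tested on simulated data. Fold changes are overexpression over control vector. Members below the filter were described by FPKM and exact permutation tests. All tested members were named, with up to 3 members of smallest p for each gene list, of which some are named, and low members and HOX cluster transcripts chosen after their values were seen. Members and lists were chosen with earlier results of these data known, and list medians are descriptions. Exon sharing came from the deposited positions. RefSeq promoter windows were matched by symbol for 26 of 46 members. Alternatives were other pseudocounts, filters, scalings, weights, limma-voom, removal of the length trend, a replicate block and leaving out each library. Values of some genes are not reported here.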

Additional observations from a re-analysis of the deposited data

How the results depend on the processing

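In each of 18 alternatives 0 members passed in either direction. One of them, limma-voom on genes with at least 10 fragments in at least 3 libraries, was added after the data were seen and tested 19 members. Adjusted limma p-values of the 12 members tested with the filter ran from 0.203 to 0.997, and HOXD13, below it, had 0.15 with no filter and 0.158 in the added fit. Of 213 member values 207 kept their direction. Leaving out 1 library at a time turned HOXD8 (-0.12 to 0.76), MEIS1 (-0.10 to 0.16), MEIS3 (-0.033 to 0.30) and PBX4 (-0.065 to 0.52), each without control vector replicate 2, and PBX4 also without overexpression replicate 1 (-0.01). Removal of the gene length trend turned MEIS1 (-0.12). The median over tested members ran from 0.051 to 0.30 with a library left out, with the lowest value without control vector replicate 2, and was 0.41 with values rescaled to a common total, where the median of all tested genes was 0.17. HOXC6, HOXD8 and PBX4 were below a filter of 2 FPKM on the mean. Whether replicate numbers pair the libraries was not settled. Deviations of same-numbered libraries correlated at -0.024, 0.105 and 0.119. Libraries numbered 2 and 3 correlated best with their own number, while those numbered 1 did not. With the replicate number as a block, 0 members were higher and 0 lower, 98 genes were higher and 131 lower over the whole table, and the median was 0.26. Over all genes, 74 were higher and 85 lower, against 149 and 116 with array weights, 113 and 123 with the filter on the mean, 73 and 51 without control vector replicate 3, 2 and 1 without control vector replicate 1, 15 and 6 in the added limma-voom fit, and 0 in either direction without any other single library (unadjusted 1665 to 2304), with no filter (3538) and with no trend (2304). Genes below the filter rest on few fragments, 80 in all for HOXD13, which limits what can be said of them.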
